A study of Mus musculus with 15 samples.

Results

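Ttr, Folr1, Kl, Clic6, Kcnj13, Sostdc1, Enpp2, Prlr, Ace and Col8a2 are 10 genes of the choroid plexus epithelium, and their read counts were examined library by library in the mouse hippocampus. They were taken by name from the 37310 genes of the count table, of which 18008 had enough reads to be tested, all 10 among them. The genes were selected on their counts in FC against CC and library by library, in earlier results of these same libraries. Their values in FC, RT and CC are therefore a description. Where the fit across all genes called a member, the call is given as its output for that gene and supports nothing.

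RNA with a polyA tail was sequenced from both hippocampi of wild-type C57BL/6J male mice of 2 months, in 15 libraries of 35731428 to 62555543 counted reads (median 52154887), 5 for each of 3 groups. All mice were handled on 3 days beforehand. Contextual fear conditioning of the FC group consisted of a single shock to the feet (1.5 mA, 2 s) in a chamber, and the mice were dissected 30 min later. Mice of the RT group had the same training, were returned to the chamber for 5 min after 24 h to retrieve the memory, and were dissected 30 min after that test. Mice of the CC group were handled but not trained, with dissection at a matching time of day. Libraries carry the numbers 3, 5, 6, 7 and 8 in each group (CC3, FC3, RT3 and so on), and each sequencing lane held 3 libraries, 1 of each group.

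The choroid plexus is a folded sheet of secretory epithelium in the brain ventricles that makes the cerebrospinal fluid and forms the barrier between that fluid and the blood. Its cells secrete transthyretin, take up folate and other nutrients from the blood, and move ions and water through channels and transporters. The tissue lies against the hippocampus where the ventricles border it, but is not a part of it. Several of the 10 genes are also known from other cells: Enpp2 from oligodendrocytes, Kl from neurons, and Ace from the endothelium of blood vessels. In bulk RNA, fewer cells of a type and less RNA per cell cannot be told apart, and the same holds for more of either.

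Markers of the hippocampus itself were present throughout. Of 11 genes known from the CA1 and CA3 fields and the dentate gyrus, 10 were tested, and their scaled counts summed to between 56666 and 65341 in the CC libraries. The sums were 56722 to 63442 in FC, and RT held 59013 to 63236. A scaled count is a read count divided by the library's upper-quartile (UQ) factor, which sets the 75th percentile of the tested genes equal in all libraries. FC3 and RT3 stood apart from the other 13 libraries in their spread: the interquartile range of the relative log expression was 0.825 in FC3 and 0.435 in RT3, against 0.080 to 0.117 elsewhere. For the 10 genes described here the libraries that stood furthest apart were others, FC5, FC8 and RT8, and results are given with and without them.

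Of the 10 genes, 5 have an entry in the RefSeq promoter table (build GRCm38.p6): Kl, Kcnj13, Prlr, Ace and Col8a2. Their 8 listed starts were each found once in mm9, the build of the counts. The stretches shown are the 250 bases before the first listed start of Kcnj13, the gene of these 5 that varied most, of Kl, which differed least between FC and CC, and of Prlr, which had the highest share of its excess in FC8. Each is written 5′ to 3′ on the strand of its gene, at chr1:89291305-89291554 (minus strand) for Kcnj13, chr5:151754932-151755181 (plus) for Kl and chr15:10106743-10106992 (plus) for Prlr, with every match to a searched motif in capitals.
Kcnj13: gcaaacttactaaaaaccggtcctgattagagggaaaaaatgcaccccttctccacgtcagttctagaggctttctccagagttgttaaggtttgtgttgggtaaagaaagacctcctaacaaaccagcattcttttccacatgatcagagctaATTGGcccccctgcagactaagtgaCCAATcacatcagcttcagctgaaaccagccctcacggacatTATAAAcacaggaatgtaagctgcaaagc
Kl: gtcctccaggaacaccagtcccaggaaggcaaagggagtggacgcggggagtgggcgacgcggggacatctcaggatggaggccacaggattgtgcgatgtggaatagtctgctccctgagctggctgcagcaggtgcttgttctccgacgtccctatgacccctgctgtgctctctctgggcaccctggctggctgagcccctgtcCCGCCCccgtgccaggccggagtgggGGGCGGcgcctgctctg
Prlr: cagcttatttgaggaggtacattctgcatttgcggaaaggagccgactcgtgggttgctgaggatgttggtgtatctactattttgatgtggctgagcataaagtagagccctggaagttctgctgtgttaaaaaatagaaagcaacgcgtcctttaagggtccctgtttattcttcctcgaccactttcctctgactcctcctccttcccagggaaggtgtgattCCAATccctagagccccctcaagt
The motifs searched, on both strands, were TATAAA (the TATA box), CCAAT (the CCAAT box), GGGCGG (the core of a GC box), TAATCC (the core that OTX factors bind), TAATTA (homeobox), TGTTTAC (forkhead) and TGACGTCA (the cyclic AMP response element). Kcnj13 held TATAAA, which 12.4% of all 32851 promoters in the table hold, and CCAAT, which 33.8% hold. Kl held GGGCGG (32.7% of all), as did Col8a2, and the first start of Prlr held CCAAT. The first start of Ace held TATAAA and TAATCC (6.25% of all), which overlap each other, besides GGGCGG. The second start of Ace held CCAAT, the second of Prlr TGTTTAC (3.17% of all), and the third of Prlr none. TAATTA and TGACGTCA, in 4.84% and 1.55% of all promoters, were in none of the 8. No motif was common to all 5 genes.

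Ttr, which encodes transthyretin, the carrier of thyroxine and of retinol-binding protein in the cerebrospinal fluid, varied most. The gene lies at chr18:20823751-20832825 (mm9, plus strand). Its scaled counts were 547 in CC3, 1048 in CC5, 1120 in CC6, 1153 in CC7 and 803 in CC8. In FC they were 6174 in FC3, 46548 in FC5, 2332 in FC6, 4958 in FC7 and 19660 in FC8. In RT they were 5735 in RT3, 2883 in RT5, 1072 in RT6, 2363 in RT7 and 12255 in RT8. All FC libraries were above all CC libraries, which was true of 2 of the 10 genes, Ttr and Clic6, and of 0.561% of all genes tested. In RT, 4 of 5 libraries were above every CC library, and RT6 lay among them. The highest library, FC5, held 85.0 times the level of the lowest, CC3. Ttr reads were 0.001% to 0.002% of a CC library, 0.093% of FC5, 0.039% of FC8 and 0.024% of RT8, and they were 4.84% to 9.80% of the summed reads of the 10 genes in CC but 55.4% in FC5. The antisense gene Gm16090, whose exons overlap those of Ttr, had 6 reads at most in any library, with the counting setting for strand not given in the sources used here.

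Folr1 encodes folate receptor alpha, which carries folate across the choroid plexus into the cerebrospinal fluid (chr7:109006845-109019302, minus strand). Its scaled counts were 46.0, 44.5, 54.0, 42.8 and 79.9 in CC3, CC5, CC6, CC7 and CC8. They were 182, 430.3, 77.2, 87.8 and 218 in FC3, FC5, FC6, FC7 and FC8, and 99.0, 75.6, 44.8, 64.2 and 128 in the RT libraries of the same numbers. FC6 lay below CC8, so that the groups overlapped by 1 library on each side, and RT3 and RT8 were the only RT libraries above every CC library.

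Clic6 and Kcnj13 belong to the ion handling of the epithelium. Clic6, a member of the chloride intracellular channel family (chr16:92485981-92541488, plus strand), had 84.9, 68.8, 95.2, 102 and 84.4 scaled counts in CC3 to CC8 in order of number, 253, 1305, 130, 132 and 473 in FC, and 178, 183, 113, 133 and 288 in RT. Clic6 was the 1 gene of the 10 with every RT library above every CC library, which held for 0.9% of all genes tested. Kcnj13 encodes Kir7.1, an inward rectifier potassium channel of the apical membrane (chr1:89282938-89291304, minus strand), and was the scarcest of the 10. It had 3 to 15 reads in the CC libraries, so that counting error alone is wide there, 100 reads in FC5, 47 in FC8 and 21 in RT8. In scaled counts, CC ran from 3.38 to 12.1, FC from 9.76 (FC7) to 117, and RT from 6.82 (RT6) to 29.8 (RT8). Its exons overlap those of Gigyf2 on the opposite strand, and Gigyf2 had 2193 to 5217 reads, lowest in FC3 and highest in CC7.

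Enpp2 and Ace encode enzymes at the cell surface or secreted from it. Enpp2 makes autotaxin, which produces lysophosphatidic acid (chr15:54670453-54751701, minus strand), and had the highest level of the 10 genes per length in CC. Its scaled counts were 8633, 8466, 8234, 9144 and 8820 in CC3 to CC8, with a mean of 8659 ± 346 (SD, n = 5). In FC they were 6908, 29817, 9988, 9833 and 18055, and in RT 10081, 9233, 8545, 8613 and 14510. FC3 was thus below, and the other 4 FC libraries above, every CC library. Ace, the angiotensin-converting enzyme (chr11:105829259-105851278, plus strand), had 521, 608, 513, 535 and 385 scaled counts in CC, 663, 1447, 507, 628 and 891 in FC, and 620, 547, 530, 595 and 749 in RT. It had the narrowest range of the 10, 3.76 times between the highest and the lowest library. The antisense gene Gm11651 at Ace had 1 read at most.

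Prlr and Kl encode membrane proteins of hormone signalling. Prlr, the prolactin receptor (chr15:10106993-10303504, plus strand), had 164, 143, 114, 123 and 87.8 scaled counts in CC, 77.0, 434, 152, 151 and 350.4 in FC, and 104, 150.2, 180.1, 113 and 279 in RT. Only FC5 and FC8 in FC, and RT6 and RT8 in RT, exceeded every CC library. Agxt2, whose exons overlap those of Prlr on the same strand, had 3 reads at most. Kl makes klotho, the coreceptor for FGF23 and a protein shed into the cerebrospinal fluid (chr5:151755182-151796384, plus strand). It had 998, 993, 997, 1077 and 1188 scaled counts in CC, 497, 2721, 1091, 1203 and 1670.1 in FC, and 829, 1282, 1044, 1039 and 1549.6 in RT. FC3 held 0.473 times the CC mean of Kl, the lowest of any gene of the 10 in any library relative to CC.

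Sostdc1 and Col8a2 are secreted into the extracellular space. Sostdc1, an antagonist of BMP and Wnt signalling (chr12:37040756-37045039, plus strand), had 151, 153, 154, 147 and 165 scaled counts in CC, 131, 664, 162, 178 and 310.3 in FC, and 187, 168, 172, 150.1 and 267 in RT. Col8a2, the alpha 2 chain of type VIII collagen (chr4:125964037-125991574, plus strand), had 164, 118, 149, 149 and 182 in CC, 212, 501, 197, 138 and 235 in FC, and 251, 179.6, 179.1, 152 and 176 in RT. Col8a2 was the 1 gene of the 10 whose highest library after FC5 was RT3 and not FC8.

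**Figure D1:**
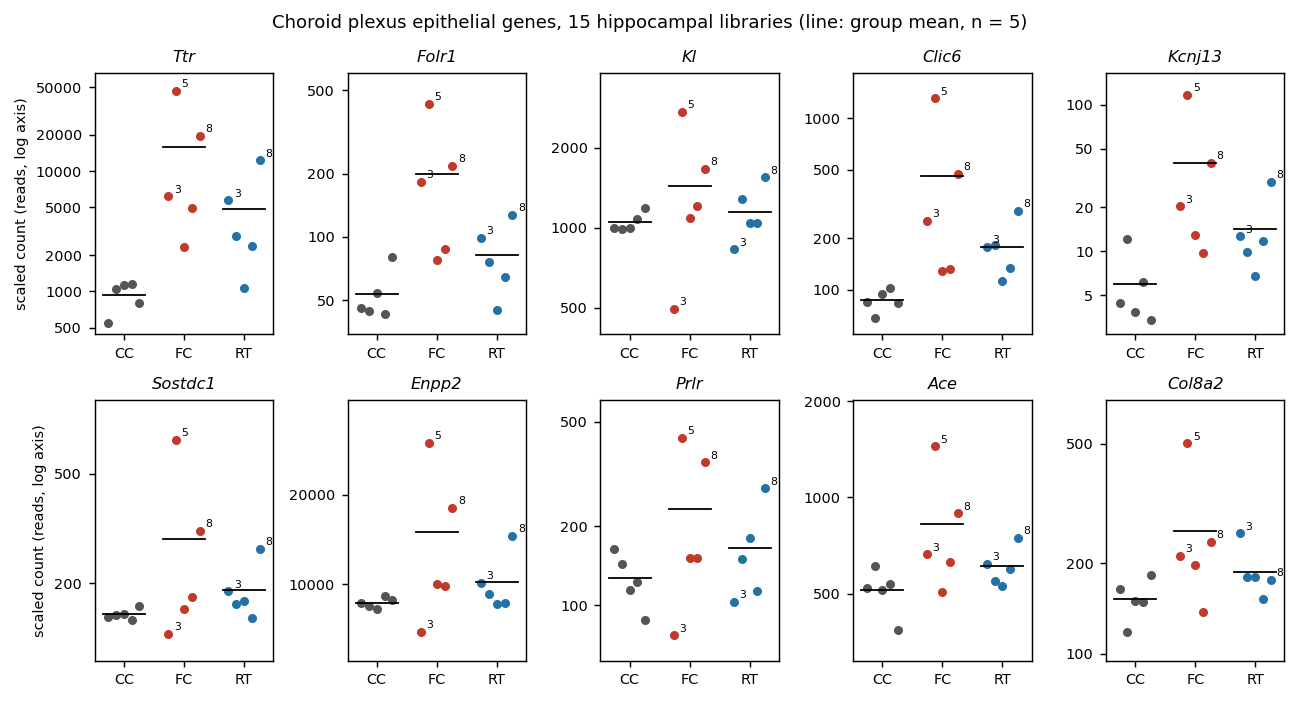
Scaled counts (reads, log axis) of the 10 genes in the 5 CC, 5 FC and 5 RT libraries, 1 point per library, with the group mean as a line and the numbers of libraries 3, 5 and 8 written beside FC and RT points where named in the text. FC5 is the top point in all 10 panels, FC8 is second in 9, and FC3 lies below every CC library for Kl, Sostdc1, Enpp2 and Prlr.

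On a scale of reads per length of exon and per library total (RPKM), Enpp2 had a level of 48.7 ± 1.98 (SD, n = 5) in CC and Ttr 15.0 ± 4.11. Kl followed with 4.02 ± 0.289, then Ace with 1.90 ± 0.314 and Sostdc1 with 1.72 ± 0.0632. Col8a2 (0.663 ± 0.0976), Folr1 (0.454 ± 0.125), Clic6 (0.435 ± 0.0623), Prlr (0.160 ± 0.0381) and Kcnj13 (0.0924 ± 0.0563) were lower. Neighbours in this order whose CC libraries overlapped were Ace and Sostdc1, Col8a2 and Folr1, Folr1 and Clic6, and Prlr and Kcnj13. In FC5 the order of the first 2 was turned, with 762 for Ttr and 171 for Enpp2.

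FC5 was the highest of all 15 libraries for 10 of the 10 genes, and FC8 was above every CC library for 10. RT8 was above every CC library for 9 of 10, all but Col8a2, RT3 for 8, FC7 for 7, FC3 for 6, FC6 and RT5 for 5, RT6 for 3 and RT7 for 2. RT8 was also the highest RT library for 9. No share of all tested genes is set beside these counts for single libraries, and nothing is read from them. Relative to the CC mean, FC5 held 49.8 times the level of Ttr, 19.6 times that of Kcnj13, 15.0 times that of Clic6 and 8.05 times that of Folr1. The other 6 genes were between 2.59 times (Kl) and 4.30 times (Sostdc1) the CC mean there. Ttr, second in level per length in CC, and Kcnj13, the lowest, had the 2 largest folds.

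The excess over the CC mean was then set against the excess of the same gene in FC5, which puts all genes on one scale. In FC8 the median gene held 38.8% of its FC5 excess, with a range from 23.7% (Col8a2) to 72.9% (Prlr). In RT8 the median was 23.4%, from 6.73% (Col8a2) to 49.7% (Prlr). Prlr and Col8a2 were thus at the ends of the range in both libraries, and the other 8 genes lay between 30.6% and 44.4% in FC8 and between 16.5% and 29.9% in RT8. FC3 had no common share: Folr1 held 34.2% and Col8a2 17.1%, while Kl stood at -33.2% and Prlr at -16.2%, below the CC mean. The medians of the other FC and RT libraries ran from 1.30% (RT6) to 7.10% (RT3).

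**Figure D2:**
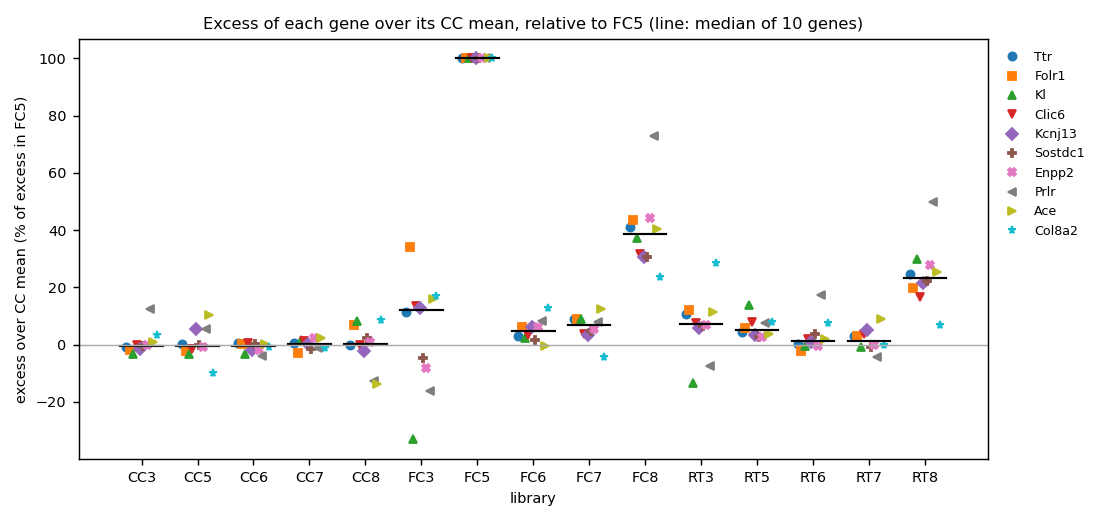
Excess of each of the 10 genes over its CC mean in every library, as a percent of its excess in FC5 (100 by construction), with the median of the 10 genes as a line. The genes lie close together in FC8 and RT8 except Prlr (72.9% and 49.7%) and Col8a2 (23.7% and 6.73%), and spread on both sides of 0 in FC3.

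In FC3 the sign of the deviation differed between short and long transcripts over the whole transcriptome. The shortest 25% of the tested genes (exonic length up to 1844 bases) had a median log2 deviation from the CC mean of 0.62 in FC3 and the longest 25% (from 5190 bases) -0.53. In RT3 the values were 0.40 and -0.31, and in the other FC and RT libraries they lay between -0.06 and 0.07. Among the 10 genes Ttr (1219 bases) and Kcnj13 (1270 bases) had FC3 deviations of 2.77 and 1.73, and Kl (5110 bases) and Prlr (15494 bases) of -1.08 and -0.68. Sostdc1, with 1751 bases, was at -0.24 and Ace, with 5287, at 0.39, so that length did not order all members. The part of transcript length in the FC3 values of these genes was not tested.

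Against Ttr, each of the other 9 genes followed a rising line over the 15 libraries, with a Pearson r of 0.884 (Prlr) to 0.990 (Clic6 and Kcnj13). Without FC5 (n = 14) r ran from 0.546 (Col8a2) to 0.968 (Clic6), and without FC5 and FC8 (n = 13) from 0.255 (Kl) to 0.909 (Clic6). The libraries share their scaling with both genes of a pair, and a few high libraries carry much of these values. For each 1000 scaled counts of Ttr the line rose by 474 counts of Enpp2, 37.0 of Kl, 25.6 of Clic6, 20.3 of Ace, 10.9 of Sostdc1, 8.21 of Folr1, 7.43 of Prlr, 6.94 of Col8a2 and 2.36 of Kcnj13. Without FC5 these slopes were, in the same order, 484, 30.8, 19.5, 20.5, 8.32, 8.65, 11.1, 3.74 and 1.85. The level at which the line met 0 Ttr, as a percent of the FC5 level, largely restates the FC5 fold over the CC mean. It was 2.55% of the FC5 level for Kcnj13, 4.28% for Clic6 and 12.1% for Folr1. It was 19.8% for Sostdc1, 26.2% for Enpp2, 27.9% for Prlr and 29.7% for Col8a2, and 34.7% for both Kl and Ace.

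**Figure D3:**
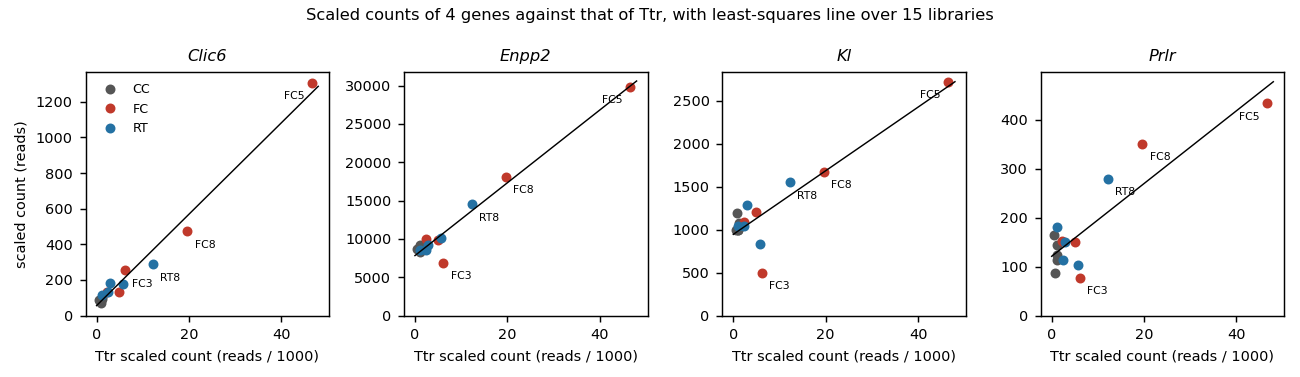
Scaled counts of Clic6, Enpp2, Kl and Prlr (reads) against that of Ttr (reads divided by 1000) in the 15 libraries, with the least-squares line over all of them. The line for Clic6 starts near 0, at 4.28% of its FC5 level, and those for Enpp2, Kl and Prlr start at 26.2%, 34.7% and 27.9%; FC3 lies below the line for the latter 3.

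Among themselves the 10 genes had a median pairwise r of 0.830 (45 pairs, log2 scaled counts, 15 libraries), from 0.454 for Folr1 with Kl to 0.984 for Sostdc1 with Enpp2. The median was 0.651 without FC5, 0.417 without FC5 and FC8, and 0.099 without FC5, FC8 and RT8. Within the 5 CC libraries it was -0.159, with 17 of 45 pairs above 0. Sostdc1 with Enpp2 remained the highest pair without FC5 (0.968) and without FC5 and FC8 (0.934). Compared with the mean of the other 9, Clic6 had the highest r (0.968) and Kl the lowest (0.653, and 0.323 without FC5). The mean log2 deviation of the 10 genes had an r of -0.281 with the total reads of a library, of -0.075 with the share of mitochondrial reads and of 0.008 with the spread of relative log expression.

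Fear conditioning was compared with the untrained controls to learn which hippocampal RNAs change after training. All 10 genes had higher FC than CC means, with log2 fold changes after UQ scaling and 5 RUVs factors (factors of unwanted variation estimated from replicates and negative control genes) of 3.49 for Ttr (SE 0.38), 2.45 for Kcnj13 (0.27), 1.96 for Clic6 (0.34) and 1.66 for Folr1 (0.24). For Prlr, Sostdc1, Enpp2, Ace, Col8a2 and Kl they were 0.88, 0.81, 0.72, 0.66, 0.64 and 0.49, with SEs between 0.14 and 0.18. At a false discovery rate (FDR) of 0.01 (edgeR likelihood ratio test), 9 of the 10 were called higher, all but Kl, beside 1.32% of all tested genes called higher and 2.24% in either direction. Since these libraries chose the genes, nothing is read from that count or from the others below. With UQ alone, 4 were called (Ttr, Kcnj13, Clic6 and Folr1), beside 0.178% of all genes called higher.

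The FC values rested on FC5 and FC8. The median log2 fold change of the 10 genes was 0.84 with all libraries (all tested genes, -0.01). It was 0.48 without FC5, where 5 genes were called (0.816% of all genes called higher, 1.34% in either direction). It was 0.23 without FC5 and FC8, where Ttr (1.96) and Folr1 (0.75) were called (0.561% of all genes called higher, 1.07% in either direction). Clic6 had 1.18 without FC5 and 0.68 without FC5 and FC8. Enpp2 went from 0.72 to 0.39 and 0.18, and Kl from 0.49 to 0.17 and 0.04. Without FC5, FC8 and RT8 the median was 0.19, and Ttr, Folr1 and Clic6 were called (0.661% of all genes called higher, 1.23% in either direction). Without FC3 and RT3 it was 0.82, and 9 genes were called (2.48% of all in either direction).

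Memory retrieval was compared with the same 5 CC libraries, so that these values are not independent of the ones above, and the RT libraries were in view when the genes were chosen. Ttr was the 1 gene of the 10 that was called, and was higher in RT (log2 fold change 1.83, SE 0.36, edgeR with RUVs), beside 0.866% of all tested genes called higher and 1.01% in either direction. Its mean scaled count was 4862 ± 4471 (SD, n = 5) in RT and 934 ± 256 in CC, so that the SD of RT was nearly as large as its mean. The call was lost without RT8 (log2 fold change 1.37), without RT5 (1.50), with UQ alone (2.38), with the quasi-likelihood test (1.82) and with DESeq2 (1.83). It was lost as well with the library number as a block, at 1.90 with UQ alone and 1.85 with 1 RUVs factor. The other 9 genes had log2 fold changes of 0.19 (Kl) to 1.16 (Kcnj13), none past the threshold. The dispersion of a gene is shared by all 3 groups, so that FC5 and FC8 also enter the error of RT against CC. The SE of Clic6 was 0.33 there. Without FC5 and FC8 in the model, its RT value was again 0.92, and it was called, as were Ttr and Prlr (0.41). Of all genes 0.944% were called higher in that fit and 1.1% in either direction. Leaving libraries out changed both the dispersion and the RUVs factors, and the part of either in these calls was not tested. With 1 library left out, 4 genes were called without FC6, 2 without FC5 or RT6, and 0 without RT5 or RT8, where 4 had an unadjusted p under 0.05 (edgeR). In these 5 fits 0.789% to 1.16% of all genes were called in either direction.

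FC was compared with RT, which shares the training but adds the retrieval test, and the FC libraries are those of the first comparison, so that these calls too are on values that chose the genes. The FC means were higher for all 10 genes. Ttr had a log2 fold change of 1.66 (SE 0.34), Kcnj13 of 1.29 (0.23) and Folr1 of 1.21 (0.23), and these 3 were called higher, beside 0.0777% of all tested genes called higher and 0.122% in either direction. The other 7 lay between 0.30 (Kl) and 1.04 (Clic6). Libraries of FC and RT that bear 1 number deviated together, and with the number as a block (edgeR, UQ alone) 0 of the 10 genes were called and 4 had an unadjusted p under 0.05, with log2 fold changes of 1.37 for Ttr, 1.13 for Kcnj13 and 1.14 for Folr1. With the block and 1 RUVs factor, 0 were called and 7 had such a p. Without FC5, edgeR called 0 and 3 had such a p, and without RT6 it called 0 and 9 had such a p. It called 1 without FC8, 5 without FC7 and 9 without FC6, and in these 5 fits between 0.0167% and 0.45% of all genes in either direction. The median of the 10 genes was 0.52 with all libraries, 0.18 without FC5 and -0.06 without FC5 and FC8, with 3 of 10 above 0. RT8, of the number of FC8, had a median excess of 23.4%, and RT5, of the number of FC5, had one of 5.07%. The part of the library number in these levels was not tested.

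**Figure D4:**
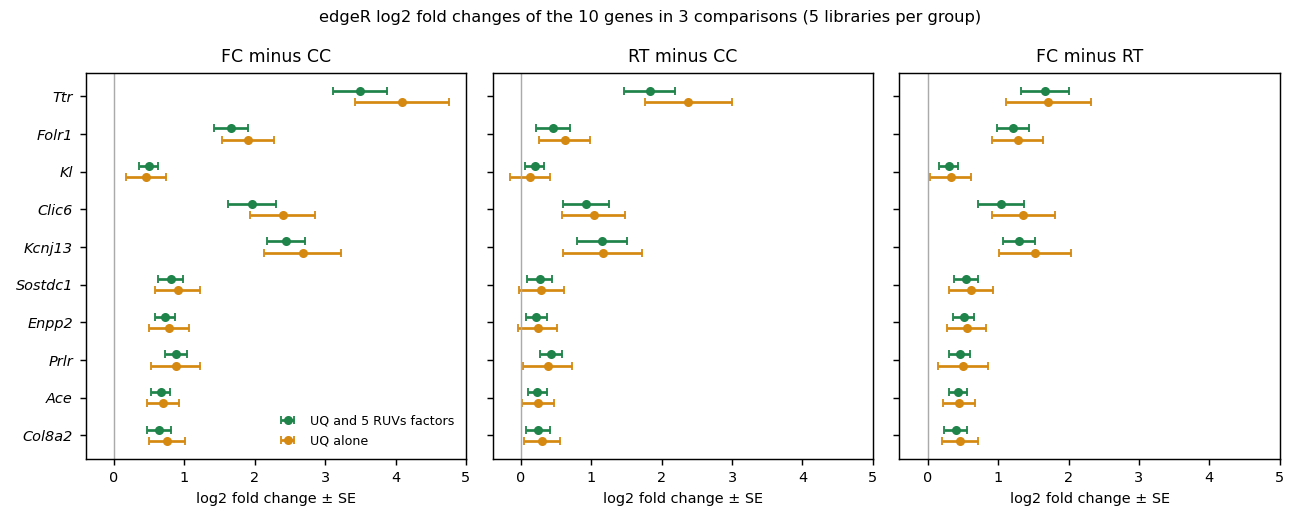
Log2 fold changes with their SE from edgeR for the 10 genes in FC minus CC, RT minus CC and FC minus RT (5 libraries per group), with UQ scaling and 5 RUVs factors (green) and with UQ alone (orange). All values are above 0; Ttr is highest in each panel (3.49, 1.83 and 1.66 with RUVs factors) and Kl lowest (0.49, 0.19 and 0.30).

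Other genes of the choroid plexus were set beside these 10. They were listed with earlier FC values of these libraries known. Of 39 listed, none a member, 37 were tested, and their mean log2 deviation had an r of 0.987 with that of the members over the 15 libraries (0.970 without FC5). Singly, 16 of the 37 had an r above 0.8, and Car12 (0.198), Htr2c (0.157), Trpm3 (0.125) and Slc22a8 (-0.074) were among those with a low one. FC5 was the highest library for 29 of the 37 and above every CC library for 34, FC8 above every CC library for 27 and RT8 for 24. These counts too have no share of all tested genes beside them, and nothing is read from them. In FC against CC 24 were called higher (1.32% of all genes) and 0 lower, with a median log2 fold change of 0.59. There were 12 without FC5 (0.816% of all), 3 without FC5 and FC8 (0.561%) and 10 with UQ alone (0.178%). In RT against CC 1 was called higher, Mfrp (1.43), beside 0.866% of all genes, with 7 without FC5 and FC8 (0.944%). UQ alone, the quasi-likelihood test and DESeq2 called 0 there, with 9 or 10 at an unadjusted p under 0.05. In FC against RT 9 were called higher, beside 0.0777% of all genes. Without FC5 edgeR called 0, with 12 at an unadjusted p under 0.05, with UQ alone 0 (16 with such a p), with the quasi-likelihood test 0 (26), and DESeq2 called 1. Tmem72, untested for its low counts, had 1 to 8 reads in CC, 120 in FC5, 56 in FC8 and 18 in RT8.

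The genes whose profile was most like the mean of the members, of 17998 ranked by r over the 15 libraries, were all on that list: Aqp1 (0.987), Kcne2, Slc4a5, Otx2, Abca4, F5, Mfrp, Prr32, Trpv4, Slc2a12, Steap1 and Cldn2 (0.898). The list was written with earlier FC values of these libraries known, and the ranking uses the values that chose the members. Their overlap is therefore a description. The median of all ranked genes was -0.017, and 11 were above 0.9. Aqp1, the water channel of the apical membrane, had 28.0 to 37.1 scaled counts in CC, 399 in FC5, 192 in FC8 and 135 in RT8. Otx2, the homeobox factor of the epithelium, had 23.0 to 42.8 in CC, 299 in FC5, 115 in FC8 and 76.6 in RT8. Mfrp and Slc4a5, a bicarbonate transporter, held 29.2 and 29.9 times their CC mean in FC5. The same 12 genes came first with TMM-scaled counts, and 9 of them without FC5. The genes least like the members, among those with a mean of at least 50, were Adamts8 (r = -0.757), Ubl4 (-0.736) and Ttc19 (-0.731).

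Among the most abundant of the other choroid plexus genes none was called. The 6 with the highest mean were Slc12a2, Slc29a4, Car12, Htr2c, Igfbp2 and Slc4a2, and 0 of them were called in FC against CC, where 4 had an unadjusted p under 0.05 (edgeR likelihood ratio test with RUVs). The quasi-likelihood test, DESeq2 and UQ alone called 0 as well. Slc12a2, the sodium, potassium and chloride cotransporter NKCC1, had 3645 scaled counts in FC5 beside 2621 to 3405 in CC, and Htr2c, the serotonin 2C receptor, 2370 beside 1475 to 2120. In FC3 Slc12a2, Car12 and Htr2c were below every CC library, with 1914, 1174 and 375 scaled counts. Slc4a2 (AE2, an anion exchanger) held 1755 scaled counts in FC5 beside 1214 to 1359 in CC and had an r of 0.893 with the members. For Slc12a2, Slc29a4, Igfbp2, Car12 and Htr2c r was 0.394, 0.321, 0.293, 0.198 and 0.157. Reads of these genes from other cells of the hippocampus could not be told apart from those of the choroid plexus. Igfbp2 was highest in FC3, with 3301, beside 928 to 1468 in CC.

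Ligands, receptors and partners of the member proteins were examined next. Of 32 listed, 31 were tested, and in FC against CC 1 was called higher and 1 lower, beside 2.24% of all genes, and the median log2 fold change was -0.04. The quasi-likelihood test and UQ alone called 0 of the 31, with 9 and 2 at an unadjusted p under 0.05, and DESeq2 called 1. The higher was Col8a1, the partner chain of Col8a2 in type VIII collagen (log2 fold change 1.11, SE 0.25), with 23.6 to 81.0 scaled counts in CC, 256 in FC5 and 135 in FC8. The lower was Fgf23, the hormone that binds klotho with an FGF receptor (-1.05, SE 0.24), with 42 reads at most in any library. It had 14.6 to 34.0 scaled counts in CC, and 6.08 in FC3, 15.2 in FC5, 15.0 in FC6, 13.4 in FC7 and 7.69 in FC8. Fgfr1 (-0.04), Lpar1 (0.01), a receptor for lysophosphatidic acid, Agt (0.00), the precursor of the angiotensins, Jak2 (-0.05) and Lrp4 (-0.05) did not pass the test. In RT against CC, 0 of the 31 were called and 1 had an unadjusted p under 0.05, and in FC against RT 0 were called and 9 had such a p (edgeR likelihood ratio test with RUVs). The quasi-likelihood test, DESeq2 and UQ alone also called 0 in both. Among the other genes listed, Rbp4 had 355 scaled counts in FC5 and 252 to 492 in CC, and Stra6 had 985 and 738 to 1043.

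Markers of other tissue next to the hippocampus had other profiles. The 12 genes of the ciliated ependyma, which lines the ventricles, had a mean log2 deviation of 0.78 in FC3, 0.56 in RT3, 0.45 in FC5 and -0.19 in FC8, beside -0.53 to 0.18 in CC, and an r of 0.336 with the members (0.128 without FC5). Their scaled counts summed to 1684 to 2663 in the CC libraries, to 1772 to 4625 in the FC ones and to 1989 to 3625 in RT. Genes of the meninges and fibroblasts (14 tested) stood at 0.20 in FC5, -0.28 in FC8 and -0.03 in RT8, with CC between -0.25 and 0.56. Blood genes (5 of 6 tested) were highest in RT3 (1.02) and FC3 (1.00), with 0.21 in FC5, and CC ran from -0.62 to 0.78. Endothelial genes (12 tested) were at -0.01 in FC5 and -0.04 in FC8, and the CA1, CA3 and dentate gyrus genes at 0.03 and -0.01. Oligodendrocyte genes (10 tested) were at -0.10 in FC5 and -0.13 in FC8, while Enpp2 held 3.44 times its CC mean in FC5. Markers of the thalamus and habenula, of the striatum and septum, of the neocortex and of microglia lay between -0.10 and 0.01 in FC5 and FC8. Of the 12 lists of genes outside the 10, the other choroid plexus genes alone had FC5, FC8 and RT8 all above its highest CC library. What set the amount of choroid plexus RNA in a library was not tested.

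**Figure D5:**
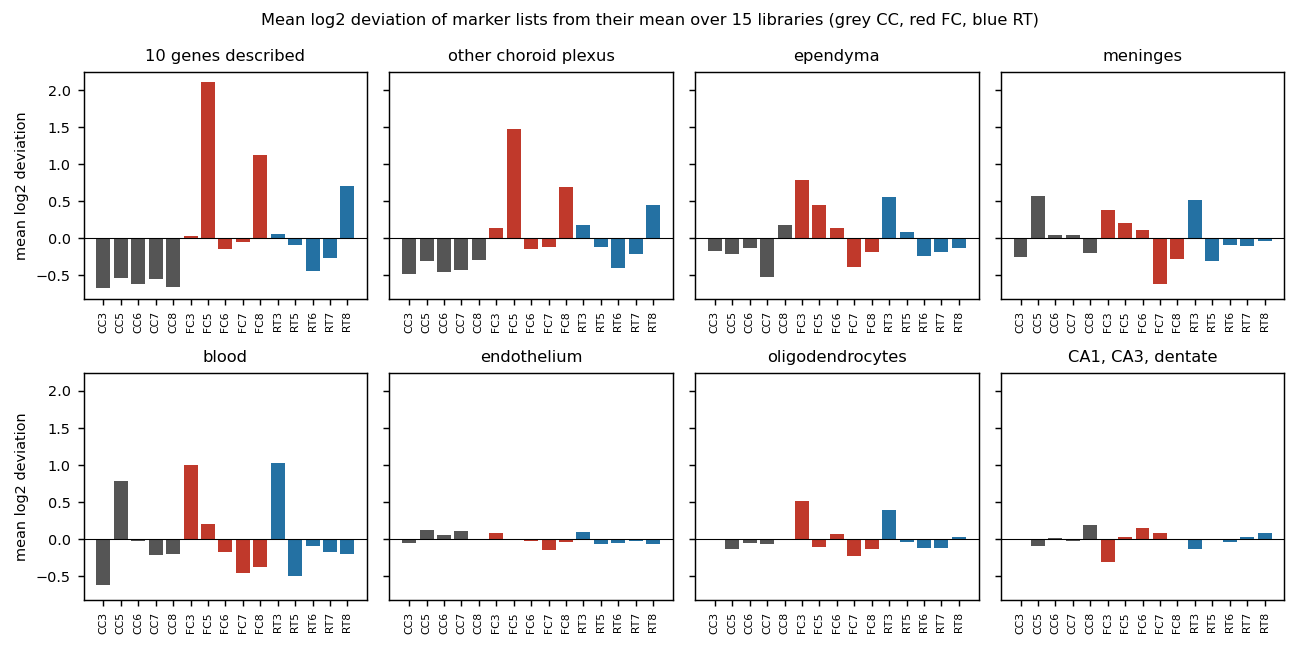
Mean log2 deviation from the mean of the 15 libraries for the 10 genes, the other choroid plexus genes and 6 lists of markers, 1 bar per library (grey CC, red FC, blue RT). The 2 choroid plexus panels share the peaks in FC5 (2.11 and 1.48), FC8 (1.12 and 0.69) and RT8 (0.70 and 0.45), while ependyma, blood and oligodendrocytes peak in FC3 and RT3.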

How the data were processed

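PolyA RNA of 15 hippocampal libraries (5 CC, 5 FC, 5 RT, grouped by their labels) was used. The authors mapped paired reads to mm9 with GSNAP, kept unique and concordant ones, and used HTSeq 0.6.1 for counts of Ensembl 65 genes. The deposited values are raw read counts, 35731428 to 62555543 per library. The strand setting was not given in the sources used here.

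A gene needed over 10 reads in over 5 libraries, which left 18008 of 37310. They were tested in R 4.3.3 with edgeR 4.0.16: a likelihood ratio test of 1 model over all 15 libraries, as in the study's methods, with UQ factors, 5 RUVs factors from 625 negative control genes (RUVs was written anew) and Benjamini-Hochberg FDR 0.01. The SE was derived from the fold change and the likelihood ratio. The scripts were tested on simulated data. Log values are log2(scaled count + 1). Alternatives were UQ alone, edgeR's quasi-likelihood test, DESeq2 1.42.0, TMM, other filters and numbers of factors, the library number as a block, and libraries left out. Every pair of libraries of a group differed by more than sampling noise, by 6.28 to 439.6 times in a chi-square per degree of freedom.

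The 10 genes, the lists and the rules were chosen with earlier results of these data known. Of listed genes, those named were the 10 members, the 6 most abundant other choroid plexus genes, partners past the threshold or fixed by name (Col8a1, Fgfr1, Lpar1, Agt, Jak2, Lrp4), and the 12 most and 3 least like genes; Tmem72, Mfrp, Trpm3, Slc22a8, Rbp4, Stra6, Gigyf2 and the other overlapping genes were named after their values were seen. Libraries of FC and RT that bear 1 number had correlated deviations from their group means (0.254 to 0.870 over 18008 genes, 5 of 5 pairs over 0.1). Between other numbers the median was 0.140 and the highest value 0.512, so that the ranges overlapped. Each lane held 1 library of each group. CC shared no such pairing with FC (-0.313 to 0.241) or RT (-0.326 to 0.0937). Promoter bases are RefSeq's, placed in mm9 by exact match.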

Additional observations from a re-analysis of the deposited data

Results flagged for a closer look

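In 30 combinations of a gene and a group, 5 had an extreme library whose gap to its neighbour, as a part of the group's range, was above 0.71, the critical ratio for 5 libraries. Chance gives about 1 in 20 for genes chosen without their values, but these were chosen on them, library by library, and share their libraries, so that the ratios are a description. The ratio was 0.717 for Kcnj13 and 0.732 for Col8a2 in FC, both with FC5 highest. In RT it was 0.748 for Kcnj13 and 0.743 for Enpp2, both with RT8 highest, and 0.720 for Col8a2 with RT3 highest.

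The FC and RT differences from CC were themselves apart for 3 genes by edgeR with RUVs: by 1.66 on the log2 scale for Ttr, 1.21 for Folr1 and 1.29 for Kcnj13. The 10 genes had been chosen with these values known, and 0 of the 3 were called without FC5.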

How the results depend on the processing

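No log2 fold change of the 10 genes that passed the threshold changed direction in any alternative. Of 860 values of single genes under alternatives, 816 were labelled unchanged. In RT against CC this meant the same direction and the same side of the threshold. For the other 2 comparisons and the FC means it meant a shift within the spread between libraries of a group, which FC5 and FC8 widen. A call could be lost within that spread, as for Enpp2 in FC against CC without FC5 (0.72 to 0.39). The count is therefore no measure of how stable the calls were. The count called in FC against CC was 9, and it was 4 with UQ alone and with 1 RUVs factor, 5 with the quasi-likelihood test and with DESeq2, 2 without FC5 and FC8, and 3 without FC5, FC8 and RT8, a setting chosen after seeing the data. With single libraries left out it ran from 5 (without FC5) to 10. Of all tested genes 1.32% were called higher in the main fit, 0.178% with UQ alone and 0.816% without FC5. The share was 0.561% without FC5 and FC8, and 0.661% without FC5, FC8 and RT8. The count in RT against CC was 1, and it was 0 with UQ alone, with the quasi-likelihood test and with DESeq2, 2 with 3 RUVs factors, 3 without FC5 and FC8, and 2 without FC5, FC8 and RT8. With single libraries left out it ran from 0 (without RT5 or RT8) to 4 (without FC6), with 2 without FC5 or RT6. Of all tested genes 0.866% were called higher in the main fit and 0.1% with UQ alone. The share was 0.944% without FC5 and FC8, and 1.04% without FC5, FC8 and RT8. The count in FC against RT was 3, and it was 0 with UQ alone, the quasi-likelihood test, DESeq2, 1 RUVs factor, without FC5 and FC8, and without FC5, FC8 and RT8, and 1 with 3 RUVs factors. With single libraries left out it ran from 0 (without FC5 or RT6) to 9 (without FC6), with 1 without FC8 and 5 without FC7. Of all tested genes 0.0777% were called higher in the main fit and 0% with UQ alone. The share was 0.0666% without FC5 and FC8, and 0.05% without FC5, FC8 and RT8. With the library number as a replicate block, UQ alone gave 4, 0 and 0 calls in the 3 comparisons and 1 RUVs factor 5, 0 and 0. The share of all genes called moved with the setting too, and it is given for some settings only. These counts are therefore not read as a result about the 10 genes. The causes were not tested.

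Depth limits Kcnj13 most, with 3 to 15 reads in CC. With 5 libraries per group and levels that differ up to 85.0 times, single libraries set the group means.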
